A study of Mus musculus with 4 samples.

Results

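The genes described here are 36 mouse genes of the fibroblast extracellular matrix and of the mesenchymal cell state, chosen by symbol: 8 collagen chains, proteoglycans, elastic fibre and matricellular proteins, collagen cross-linking enzymes, fibroblast surface proteins and transcription factors of the epithelial-mesenchymal transition. All 36 were found among the 54446 genes with an Ensembl ID in the table, on 15 chromosomes, and 35 passed the filter on low counts (21916 genes passed in all). The series compared cultured tongue-derived epithelial cells of C57BL/6 mice, 2 libraries from mice labelled as lacking the deubiquitinase gene Otub2 in the whole body and 2 labelled wild type. KO 3 and KO 4 stand here for the libraries labelled Otub2 knockout, and Control 1 and Control 2 for the wild-type ones. All cells were grown in RPMI-1640 medium with 10% serum. The labels give no age, allele or deleted exon and do not say whether a group's libraries derive from different animals, so p-values measure only the spread between these libraries, which may be technical.

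Fibrillar collagens (types I, III and V) are secreted as triple helices and assemble into the fibres of connective tissue, and collagen VI forms beaded filaments around cells. Small leucine-rich proteoglycans coat the fibres, fibrillins and fibulins are parts of elastic fibres, lysyl oxidases cross-link them, and matricellular proteins such as tenascin C and periostin appear in matrix that is being remodelled. In oral mucosa the stroma under the epithelium makes most of this matrix. Snail, Twist and Zeb factors repress epithelial genes during epithelial-mesenchymal transition, when epithelial cells take up expression of vimentin and N-cadherin.

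The libraries differed in ways that bear on these genes. Gene counts summed to 22719550 in KO 3 and 18911259 in KO 4, against 12185345 and 11548186 in the controls. KO 3 stood apart: Mucl2, a secreted gland protein, had 5462635 counts in KO 3 and 348 in KO 4, against 21 and 16 in the controls, and the heart muscle myosin gene Myh6 had 134463 counts in KO 3 and 9 in KO 4, against 53 and 60 in the controls. In the table KO 3 and KO 4 carry the column heading OE in place of KO, and were matched to the titles by number. Otub2 itself had 272 and 495 counts in KO 3 and KO 4, against 393 and 367 in the controls (18.8 and 23.7 CPM against 27.2 and 26.6 CPM, log2 fold change -0.34, SE 0.302, edgeR adjusted p = 0.485). A gene-level count does not check a deletion. Epithelial genes were detected in every library: 15 of them, such as Krt5, Krt14 and Cdh1, summed to 21879 and 31734 CPM in KO 3 and KO 4 and to 38614 and 36282 CPM in the controls, and none was at 0. In KO 3, 13 cardiomyocyte genes reached a similar sum, 20220 CPM, and 15 salivary secretory genes a far larger one, 419368 CPM, while the label names tongue epithelial cells.

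Most of the matrix genes lay higher in the knockout libraries, but no member passed the test over all genes. The collagens of types I, III, V and VI, biglycan, fibulin 2, periostin, tenascin C, fibronectin and osteonectin were above both controls in both KO 3 and KO 4. A further group, led by decorin, dermatopontin, Mfap5, Pdgfra, Zeb1 and N-cadherin, was high in KO 3 alone. The Snail and Twist factors Snai1 and Twist1 lay below both controls in both libraries. In edgeR's quasi-likelihood test 0 of 35 members were called higher and 0 lower at an adjusted p of 0.05, as for all genes (0% of 21916 in either direction), and the members' adjusted p ran between 0.166 and 0.926. At an unadjusted p under 0.05, 17 of 35 members were higher (9.42% of all genes tested) and 0 lower (15.2% of all genes). The members' median log2 fold change was 1.50, against 0.09 over all genes tested. Restricted to genes averaging at least 5 CPM over the 4 libraries, the medians were 1.51 over 30 members and 0.41 over all such genes. CPM are counts relative to the TMM-scaled library size. Some members, such as Cdh2 and Dpt, met this minimum only through KO 3.

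Summed over all members, the level was 1730 and 1515 CPM in KO 3 and KO 4, against 624 and 628 CPM in the controls. As a share of all gene counts, without TMM scaling, this was 0.110% and 0.168%, against 0.0740% and 0.0751%.

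Counted by placement, 20 of 35 members lay above both controls in both knockout libraries and 2 below, where the shares over all genes tested were 26.9% and 33.1%. The count above was 16 with upper-quartile factors and 14 with library size only, beside 10.4% and 8.82% of all genes. With the same minimum of 5 CPM, 19 of 30 members lay above and 0 below, beside 42.8% and 11.9% of all genes so restricted. This takes the genes from the same fit. The 2 members below, Snai1 and Twist1, did not reach the minimum. Because it is a mean over all libraries, it also keeps genes that are high in a knockout library alone. When the scaling and fit were redone on genes of at least 5 CPM alone, 16 members lay above and 1 below. The shares of all genes were then 22.8% and 23.8%, and the member median was 1.20. In 8 of 35 members both knockout libraries were at least 2-fold above both controls, against 2.69% of all genes tested (8 of 30 and 3.79% with the minimum of 5 CPM): Col1a1, Col1a2, Col5a1, Col5a2, Col6a1, Bgn, Fbln2 and Tnc. All these values come from bulk RNA, in which more cells of a type and more RNA per cell cannot be told apart.

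**Figure D1:**
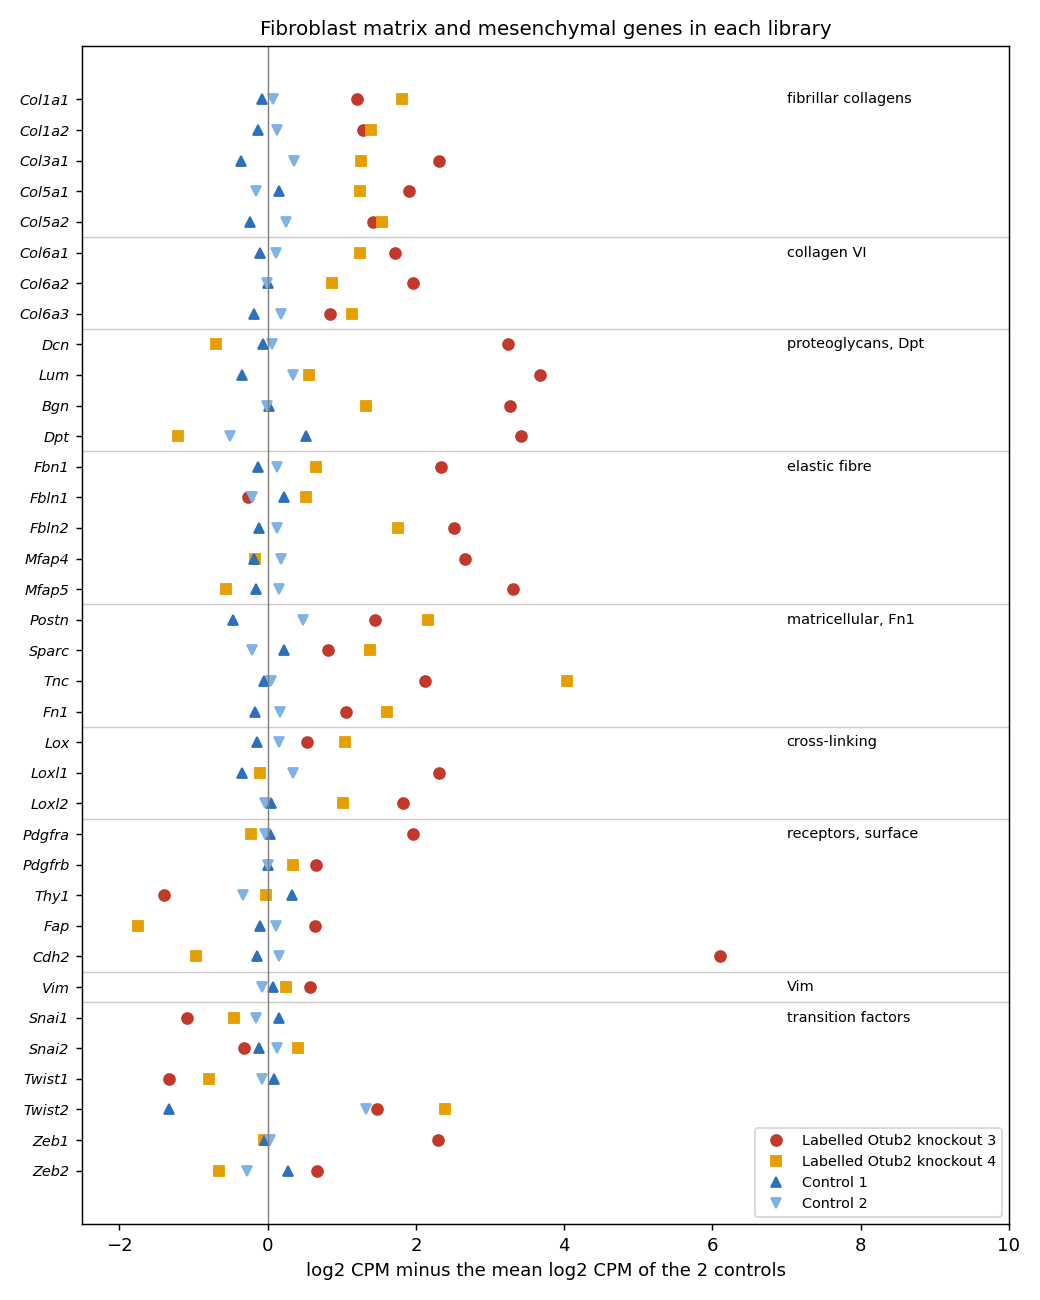
The log2 CPM of each of the 36 members in each library, minus the mean log2 CPM of the 2 controls (horizontal axis), with members grouped by role from top to bottom; circles and squares are KO 3 and KO 4, triangles the controls. The collagen and matricellular genes have both knockout libraries to the right of both controls, whereas decorin, dermatopontin, Mfap5, Pdgfra, Zeb1 and Cdh2 have only KO 3 there.

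The 5 fibrillar collagen genes were 1.34 to 1.83 higher on the log2 scale. Col1a2, the alpha 2 chain of type I collagen (GRCm38, plus strand of chromosome 6, 4504814 to 4541544), counted 1120 and 1743 in KO 3 and KO 4 and 418 and 477 in the controls, or 77.3 and 83.4 CPM against 28.9 and 34.5 CPM (log2 fold change 1.34, SE 0.254, edgeR adjusted p = 0.166). Its partner chain Col1a1 (chromosome 11, 94936224 to 94953042, plus strand) was at 107 and 162 CPM in KO 3 and KO 4, against 43.9 and 48.7 CPM in the controls (1.54, SE 0.309, adjusted p = 0.166). In both genes the groups did not overlap and the gap between them was wider than the spread within either. Col5a2, a type V chain that sets fibre diameter, was at 39.3 and 42.9 CPM in KO 3 and KO 4 and at 12.4 and 17.4 CPM in the controls (1.47, SE 0.319, adjusted p = 0.166). The type III gene Col3a1, its neighbour on chromosome 1 at a distance of 24614 bases and on the other strand, was highest in KO 3, at 185 CPM, with 89 CPM in KO 4 and 29.2 and 47.7 CPM in the controls. Col5a1 was also higher in KO 3, at 44.1 CPM, than in KO 4, at 27.6 CPM, with 13.1 and 10.5 CPM in the controls.

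All 3 collagen VI chains were higher as well. Col6a1 was at 27.3 and 19.9 CPM in KO 3 and KO 4, against 7.75 and 8.98 CPM in the controls (a log2 fold change of 1.50, SE 0.367, adjusted p = 0.166). Col6a2 lies 85161 bases from Col6a1 on chromosome 10, on the same strand, and was at 32.7 and 15.3 CPM against 8.44 and 8.33 CPM (log2 fold change 1.51, SE 0.476, adjusted p = 0.172). Col6a3, the longest chain, was at 25.3 and 31 CPM against 12.5 and 16 CPM (log2 fold change 0.98, SE 0.331, adjusted p = 0.18). The groups did not overlap for any of the 3, and the order of KO 3 and KO 4 was the reverse in Col6a3 of that in the other chains.

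Ratios of the authors' FPKM (counts divided by gene length and by the column's total) within a library do not depend on how libraries are scaled. The Col1a1 level per length was 2.62 and 3.68 times that of Col1a2 in KO 3 and KO 4, and 2.88 and 2.67 times in the controls. The ratio of Col6a1 to Col6a2 was 1.59 and 2.47 in KO 3 and KO 4 and 1.75 and 2.05 in the controls. Both ratios lay on either side of the controls in the knockout libraries. Col3a1 stood to Col1a1 at 1.16 in KO 3 and 0.367 in KO 4, against 0.444 and 0.655 in the controls.

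Matricellular proteins and fibronectin were above both controls in both knockout libraries, and were higher in KO 4 than in KO 3. Tnc, which encodes tenascin C, a large glycoprotein of remodelled matrix (chromosome 4, 63959785 to 64047015, minus strand), had 872 and 4772 counts in KO 3 and KO 4 and 193 and 198 in the controls. On the CPM scale it was at 60.2 and 228 CPM against 13.4 and 14.3 CPM. This was a 4.35-fold difference from the control mean in KO 3 and a 16.5-fold one in KO 4 (log2 fold change 3.38, SE 0.686, 95% interval 1.64 to 5.13, adjusted p = 0.166). Postn, the matricellular protein periostin, was at 57 and 93.3 CPM in KO 3 and KO 4, against 15.1 and 29 CPM in the controls (1.77, SE 0.447, adjusted p = 0.166). Fn1, fibronectin, was at 34.1 and 50.2 CPM against 14.6 and 18.5 CPM (log2 fold change 1.35, SE 0.342, adjusted p = 0.166). Sparc, the collagen-binding glycoprotein osteonectin, was at 217 and 321 CPM against 143 and 106 CPM (log2 fold change 1.11, SE 0.335, adjusted p = 0.17). None of the 4 overlapped between the groups, although for Postn the 2 controls lay further apart, by 0.94 on the log2 scale, than KO 3 and KO 4 did, by 0.71. Tnc stood to Fn1 at a FPKM ratio of 2.65 and 6.84 in KO 3 and KO 4, against 1.38 and 1.16 in the controls.

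Of the 8 genes at least 2-fold above both controls in both libraries, 6 had an entry in the RefSeq promoter table (GRCm38.p6). The 250 bases before the RefSeq start of each are shown because these genes were high together. They were searched on both strands for 6 motifs: the CCAAT box (CCAAT), the GC box (GGGCGG), the TATA box (TATAAA), the E-box bound by Snail and Zeb factors (CACCTG), the AP-1 site (TGANTCA) and the TEAD site (GGAATG). Capitals mark every match, on the other strand as the reverse complement (CCGCCC for the GC box), and overlapping GC boxes run together. For Tnc, which has 2 starts in the table, the upstream one is shown. RefSeq starts can differ from the GENCODE gene coordinates used elsewhere here. By those coordinates the windows of Col1a2 and Fbln2 lie within the gene, and that of Col6a1 lies partly within it.
Col1a2 (chr6:4505368-4505617, plus strand): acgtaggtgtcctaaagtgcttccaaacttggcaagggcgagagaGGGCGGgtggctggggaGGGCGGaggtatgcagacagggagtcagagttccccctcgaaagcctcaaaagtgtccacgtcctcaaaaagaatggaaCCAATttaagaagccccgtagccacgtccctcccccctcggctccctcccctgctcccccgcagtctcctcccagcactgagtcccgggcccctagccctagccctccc
Col5a1 (chr2:27886175-27886424, plus strand): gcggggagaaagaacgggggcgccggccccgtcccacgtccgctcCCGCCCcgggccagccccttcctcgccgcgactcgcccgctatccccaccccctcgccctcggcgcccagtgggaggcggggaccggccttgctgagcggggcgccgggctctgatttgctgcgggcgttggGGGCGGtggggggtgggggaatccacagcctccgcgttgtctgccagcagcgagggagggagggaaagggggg
Col6a1 (chr10:76726045-76726294, minus strand): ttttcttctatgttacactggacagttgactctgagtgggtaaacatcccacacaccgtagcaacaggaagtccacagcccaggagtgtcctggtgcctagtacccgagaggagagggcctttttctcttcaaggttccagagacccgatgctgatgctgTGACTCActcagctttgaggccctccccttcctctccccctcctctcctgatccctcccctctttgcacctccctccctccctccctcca
Bgn (chrX:73483351-73483600, plus strand): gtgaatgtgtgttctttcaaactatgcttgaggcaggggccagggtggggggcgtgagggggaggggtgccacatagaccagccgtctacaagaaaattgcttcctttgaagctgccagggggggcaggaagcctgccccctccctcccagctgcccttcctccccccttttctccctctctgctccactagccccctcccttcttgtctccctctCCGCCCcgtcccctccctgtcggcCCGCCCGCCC
Fbln2 (chr6:91212514-91212763, plus strand): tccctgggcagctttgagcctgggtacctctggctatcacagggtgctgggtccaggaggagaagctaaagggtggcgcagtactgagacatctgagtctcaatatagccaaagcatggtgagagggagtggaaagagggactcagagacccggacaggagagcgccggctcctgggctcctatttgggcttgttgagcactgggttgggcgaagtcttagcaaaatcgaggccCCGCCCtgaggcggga
Tnc (chr4:64047016-64047265, minus strand): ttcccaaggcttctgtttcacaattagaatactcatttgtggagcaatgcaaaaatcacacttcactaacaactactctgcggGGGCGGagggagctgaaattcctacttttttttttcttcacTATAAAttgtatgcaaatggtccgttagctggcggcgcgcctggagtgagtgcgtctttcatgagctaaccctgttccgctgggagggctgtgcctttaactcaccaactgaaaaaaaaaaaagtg

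The Col1a2 window held 1 CCAAT box and 2 GC boxes. The Col5a1 window held 2 GC boxes, the Bgn window 3 and the Fbln2 window 1. The Tnc window held 1 GC box and 1 TATA box, and the Col6a1 window 1 AP-1 site and no other match. Members on chromosome 18 (Lox, Pdgfrb, Cdh2 and Zeb1) were left out of this search, but the shares over all windows leave out no chromosome. The 20 members that were searched and had an entry gave 27 windows. A GC box was in 15 of these windows, a CCAAT box in 6, a TATA box in 6, a TEAD site in 3, an E-box in 2 and an AP-1 site in 2. The shares over all 32851 windows of the table were 32.7% for the GC box, 33.8% for the CCAAT box, 12.4% for the TATA box, 12.6% for the TEAD site, 17.2% for the E-box and 6.75% for the AP-1 site. The E-box was in the windows of Dpt and Snai1 and in none of the 6 shown. Some windows of a gene with several starts overlap, and a match is a description of the letters.

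Small proteoglycans did not share one pattern. Bgn, biglycan, was at 98.1 and 25.4 CPM in KO 3 and KO 4, against 10.2 and 10.1 CPM in the controls (a log2 fold change of 2.60, SE 0.68, adjusted p = 0.166). Both knockout libraries lay well outside the narrow range of the controls. Dcn, the collagen-binding proteoglycan decorin, had 2426 counts in KO 3 and 228 in KO 4, against 244 and 254 in the controls. That is 167 CPM in KO 3 and 10.9 CPM in KO 4, against 16.9 and 18.4 CPM in the controls, 9.51-fold the control mean in KO 3 and 0.619-fold in KO 4 (2.34, SE 1.17, adjusted p = 0.265). Lum, lumican, which lies 46984 bases from Dcn on chromosome 10 on the same strand, was at 34.9 and 4.02 CPM against 2.14 and 3.48 CPM (log2 fold change 2.79, SE 1.06, adjusted p = 0.198). KO 3 was thus far above the controls for both neighbours, whereas KO 4 was below both controls for Dcn and just above both for Lum. Dpt, dermatopontin, a small matrix protein that binds decorin, was at 16.6 CPM in KO 3 and 0.67 CPM in KO 4, against 2.21 and 1.09 CPM in the controls.

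Relative to type I collagen the difference between KO 3 and KO 4 was larger still. Dcn stood to Col1a1 at a FPKM ratio of 1.76 in KO 3 and 0.0757 in KO 4, against 0.432 and 0.424 in the controls. Lum stood to Col1a1 at 0.876 and 0.0665, against 0.131 and 0.191. The ratio of Dcn to Bgn was 1.78 in KO 3, between the 1.72 and 1.91 of the controls, and 0.449 in KO 4. In the authors' FPKM the 5 most abundant members of KO 3 were Sparc, Dcn, Vim, Col3a1 and Snai2, those of KO 4 were Sparc, Tnc, Snai2, Col1a1 and Vim, and those of each control were Sparc, Snai2, Vim, Fbln1 and Col1a1.

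**Figure D2:**
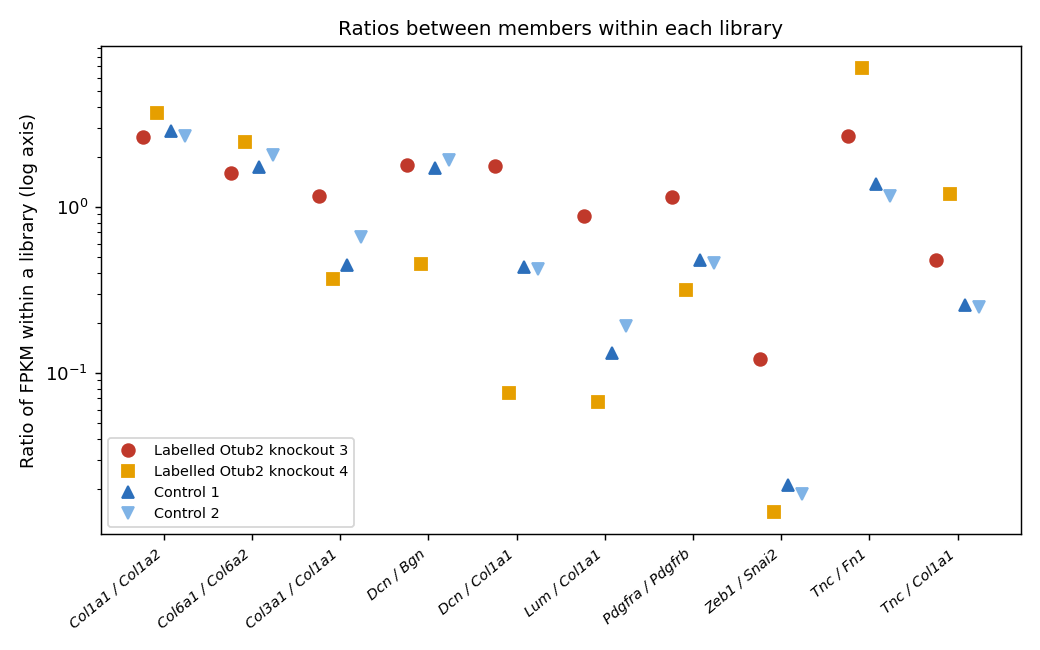
Ratios of the authors' FPKM between pairs of members within each library, on a log axis; circles and squares are KO 3 and KO 4, triangles the controls. The ratio of Dcn to Col1a1 is 1.76 in KO 3 and 0.0757 in KO 4, on either side of the controls at 0.432 and 0.424, while the ratio of Tnc to Fn1 is above the controls in both.

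Elastic fibre genes were divided in the same way. Fbln2, fibulin 2, had 763 and 652 counts in KO 3 and KO 4 and 123 and 139 in the controls, or 52.7 and 31.2 CPM against 8.51 and 10.1 CPM (log2 fold change 2.17, SE 0.388, adjusted p = 0.166). It had the smallest unadjusted p of the members, 0.00223. Fbn1, fibrillin 1, the backbone of microfibrils, was at 30.9 CPM in KO 3 and 9.62 CPM in KO 4, against 5.6 and 6.73 CPM (1.71, SE 0.639, adjusted p = 0.194). The microfibril-associated gene Mfap5 was at 16 CPM in KO 3 and 1.1 CPM in KO 4, against 1.45 and 1.81 CPM in the controls (2.38, SE 1.23, adjusted p = 0.273). Mfap4, also of microfibrils, was at 6.49 CPM in KO 3 and at 0.909 CPM in KO 4, inside the range of the controls at 0.899 and 1.16 CPM. It overlaps Mapk7 on the opposite strand, and the strand setting of the counting is not given in the sources used here. Fbln1, fibulin 1, was at 36.8 CPM in KO 3 and 63.2 CPM in KO 4, on either side of the controls at 51.4 and 38.2 CPM (0.16, SE 0.365, adjusted p = 0.79).

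The lysyl oxidases cross-link collagen and elastin by oxidising lysines. Loxl2 was at 9.73 and 5.55 CPM in KO 3 and KO 4, against 2.84 and 2.68 CPM in the controls (a log2 fold change of 1.47, SE 0.505, adjusted p = 0.183). Lox was at 3.87 and 5.55 CPM against 2.42 and 2.97 CPM (log2 fold change 0.81, SE 0.485, adjusted p = 0.328). For both genes the groups did not overlap. Loxl1 was at 23.1 CPM in KO 3 but at 4.35 CPM in KO 4, inside the range of the controls at 3.67 and 5.94 CPM (1.51, SE 0.854, adjusted p = 0.305).

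**Figure D3:**
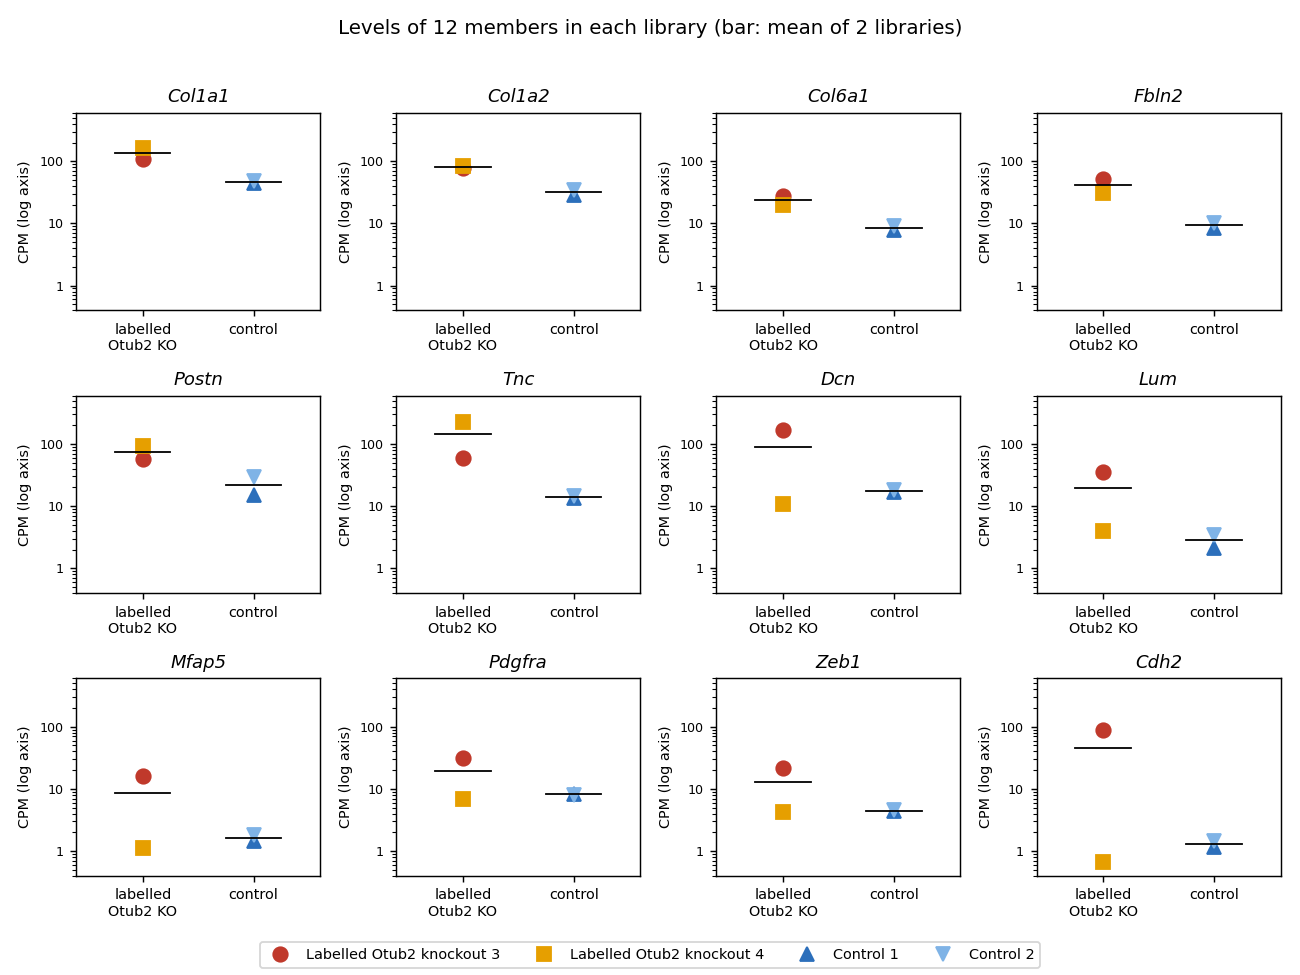
CPM of 12 members in each library on a shared log axis, with the knockout libraries on the left of each panel and the controls on the right; bars are means of 2 libraries. Col1a1, Col1a2, Col6a1, Fbln2, Postn and Tnc have both knockout libraries above both controls, whereas Dcn, Mfap5, Pdgfra, Zeb1 and Cdh2 have KO 3 above and KO 4 below them.

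Fibroblast surface genes were mostly split between KO 3 and KO 4. Pdgfra, the PDGF receptor that marks fibroblasts, was at 31.7 CPM in KO 3 and 6.98 CPM in KO 4, against 8.3 and 7.96 CPM in the controls (a log2 fold change of 1.25, SE 0.745, adjusted p = 0.325). Pdgfrb, the receptor of pericytes and fibroblasts, was above both controls in both, at 15 and 12.1 CPM against 9.55 and 9.56 CPM (log2 fold change 0.51, SE 0.37, adjusted p = 0.405). The FPKM ratio of Pdgfra to Pdgfrb was 1.15 in KO 3 and 0.315 in KO 4, against 0.475 and 0.455 in the controls. Cdh2, the N-cadherin of mesenchymal cells and also of cardiac muscle, had 1304 counts in KO 3 and 14 in KO 4, against 17 and 20 in the controls (90 and 0.67 CPM against 1.18 and 1.45 CPM, log2 fold change 5.10, SE 2.04, adjusted p = 0.206). KO 3 was at 69-fold the control mean, while KO 4 was below both controls. Fap, the fibroblast activation protease, was at 3.24 CPM in KO 3 and 0.622 CPM in KO 4, against 1.94 and 2.24 CPM in the controls. Thy1, a surface glycoprotein of fibroblasts and other cells, was at 3.24 CPM in KO 3, below the 10.8 and 6.81 CPM of the controls, and at 8.47 CPM in KO 4, between them.

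Among the 5 transition factors tested, none had KO 3 and KO 4 both over the controls, beside 26.9% of all genes tested. Twist1 was at 2.49 and 3.64 CPM in KO 3 and KO 4, against 6.64 and 5.94 CPM in the controls (a log2 fold change of -1.03, SE 0.47, adjusted p = 0.235). Snai1 was at 1.17 and 1.82 CPM, from 17 and 38 counts, against 2.77 and 2.24 CPM, from 40 and 31 counts (-0.73, SE 0.49, adjusted p = 0.368). For Twist1 and Snai1 KO 3 and KO 4 were both under the controls, beside 33.1% of all genes tested, and neither passed the test. So few factors cannot be told apart from all genes by these counts. Zeb1 was at 22 CPM in KO 3 and 4.31 CPM in KO 4, against 4.36 and 4.56 CPM in the controls (1.55, SE 0.818, adjusted p = 0.281). Zeb2 was at 15.5 CPM in KO 3 and 6.22 CPM in KO 4, outside the controls at 11.8 and 8.11 CPM in opposite directions. Snai2, the most abundant of these factors, was at 35.6 CPM in KO 3 and 58.6 CPM in KO 4, on either side of the controls at 40.7 and 48.1 CPM. Twist2, which did not pass the filter on low counts, had 7 and 19 counts in KO 3 and KO 4 against 1 and 6 in the controls, above both controls in both. Vim, vimentin, the intermediate filament of mesenchymal cells, was at 107 and 84.9 CPM against 75.5 and 67.8 CPM (log2 fold change 0.42, SE 0.259, adjusted p = 0.338), without overlap between the groups on this scale, and its direction turned with 2 other scalings given under the processing.

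To show the knockout libraries separately, each was set alone against the controls, on the assumption that a lone library varies no more than the controls. KO 3 alone gave 25 of 35 members higher (22.4% of all genes tested) and 3 lower (12.7% of all genes), Snai1, Thy1 and Twist1, by edgeR at an adjusted p under 0.05. KO 4 alone gave 16 of 36 members higher (18.8% of all genes) and 2 lower (22% of all genes), Dpt and Fap. The 16 were the 8 collagens with Bgn, Fbln2, Fn1, Lox, Loxl2, Postn, Sparc and Tnc. The 2 fits share the controls. By placement, KO 3 was above both controls in 30 of 35 members (42.1% of all genes tested) and below both in 5 (45.6%). KO 4 was above in 22 (41.8%) and below in 10 (47.1%). With the minimum of 5 CPM, KO 3 was above in 27 of 30 (58.1%) and below in 3 (28.4%), and KO 4 was above in 21 of 30 (64.2%) and below in 7 (23.4%). The share of members above the controls in KO 4 was thus close to that of all genes of such a level. Some members met the minimum only through KO 3, so these restricted counts are not independent of the levels compared. KO 3 was at least 2-fold above both controls in 21 of 35 members (15.1% of all genes tested) and at least 2-fold below in 2 (16.1%). KO 4 was so far above in 11 of 35 (7.89%) and so far below in 1 (25.4%). With the minimum of 5 CPM these counts were 20 above (18.8%) and 1 below (3.75%) in KO 3, and 11 above (11.5%) and 0 below (4.98%) in KO 4. The members' median log2 difference from the control mean was 1.71 in KO 3 and 0.56 in KO 4, beside -0.03 and -0.06 over all genes tested that had counts in the library and in both controls. KO 4 exceeded KO 3 in 14 of 35 members and was below it in 21, and with 1 library a side that difference has no test.

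**Figure D4:**
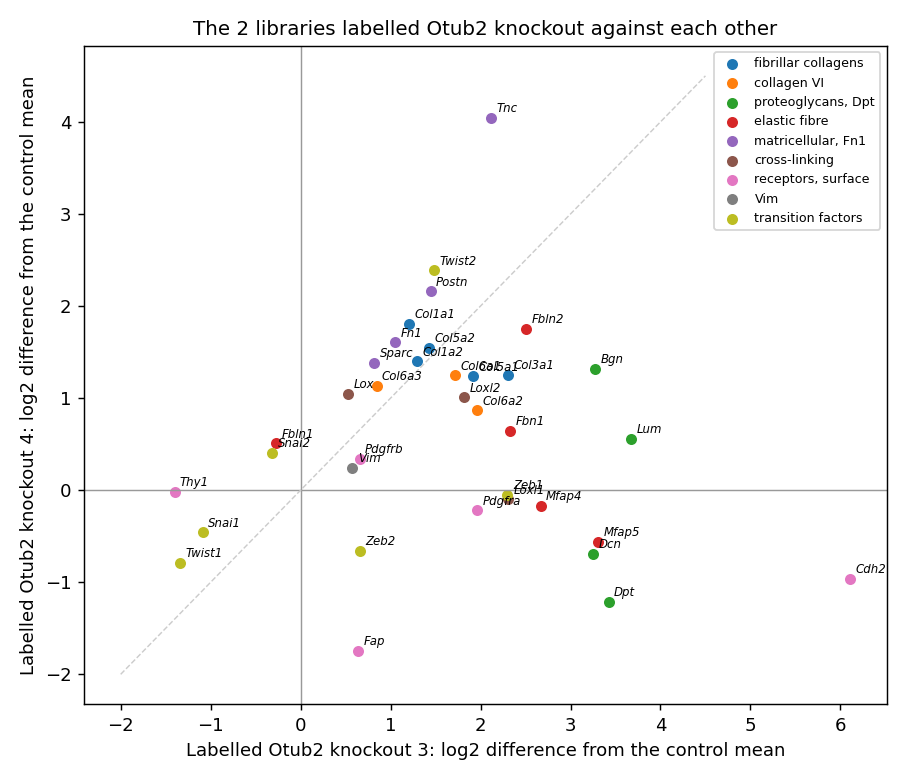
Each of the 36 members by its log2 difference from the control mean in KO 3 (horizontal axis) and in KO 4 (vertical axis), coloured by role; the dashed line marks equal differences. Collagens and matricellular genes lie in the upper right, with Tnc highest in KO 4, while Cdh2, Dpt, Dcn and Mfap5 lie at the right and below 0; both axes use the same controls.

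Of 24 genes that modify and process collagen 0 passed the edgeR test over all genes, while at an unadjusted p under 0.05 the count was 10 higher and 0 lower (9.42% and 15.2% of all genes). KO 3 and KO 4 both exceeded the controls in 16 and both lay under them in 2 (26.9% and 33.1% of all genes tested, 42.8% and 11.9% with the minimum of 5 CPM). The median log2 fold change was 0.996, and among those not higher were Crtap, at -0.003, Adamts2, at -0.17, and Pcolce2, at -1.19. The median log2 difference from the control mean was 0.96 in KO 3 and 0.94 in KO 4. P4ha1, a prolyl hydroxylase subunit, was at 66.1 and 87.6 CPM in KO 3 and KO 4, against 25.6 and 27.9 CPM in the controls (1.52, SE 0.277, adjusted p = 0.166). Plod1, a lysyl hydroxylase, was at 65.9 and 37.9 CPM in KO 3 and KO 4, against 14 and 10.1 CPM in the controls (2.10, SE 0.405, adjusted p = 0.166). Plod3, another lysyl hydroxylase, was at 54.7 and 51 CPM against 20.8 and 20.1 CPM (log2 fold change 1.37, SE 0.258, adjusted p = 0.166). Of 31 tested genes of other interstitial matrix 0 passed the edgeR test and 6 were higher and 2 lower by unadjusted p (9.42% and 15.2% of all genes), with a median of 0.63. Of these 31 genes 14 lay above and 5 below both controls, where the shares over all genes tested were 26.9% and 33.1%. With the minimum of 5 CPM, to which the 31 were not held, the shares were 42.8% and 11.9%. Thbs2, thrombospondin 2, was at 17.2 and 29.9 CPM in KO 3 and KO 4, against 3.32 and 3.69 CPM, and Vcan, the large proteoglycan versican, at 29.4 and 15.1 CPM against 3.46 and 2.53 CPM. Col7a1, the anchoring fibril collagen that keratinocytes also make, was at 937 and 787 CPM against 246 and 366 CPM. The 4 PDGF ligands, which act on Pdgfra and Pdgfrb, summed to 67.4 and 73.9 CPM against 51.6 and 40.2 CPM. KO 3 and KO 4 both exceeded the controls in 3 of 4, beside 26.9% of all genes tested. That share was 42.8% with the minimum of 5 CPM, to which the ligands were not held. So few genes cannot be told apart from all genes by this count, and none had an unadjusted p under 0.05 by edgeR.

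Summed markers of several other cell types were high in KO 3. The 13 cardiomyocyte genes summed to 20220 CPM in KO 3 and 63.8 CPM in KO 4, against 75.9 and 95.4 CPM in the controls, with 1 gene at 0 in Control 1. The 15 salivary secretory genes summed to 419368 and 29.4 CPM, against 11.9 and 9.12 CPM, with 4 and 3 genes at 0 in KO 3 and KO 4 and 3 and 4 in the controls. The 12 smooth muscle and pericyte genes summed to 1267 and 255 CPM against 245 and 280 CPM, and the 10 endothelial genes to 374 and 104 CPM against 115 and 94.1 CPM. The 10 skeletal muscle genes summed to 3111 and 103 CPM against 35.4 and 29.3 CPM, but in KO 3 the sum rested on Mb, Des, Ckm and Acta1, which heart muscle also expresses. Des, at 638 CPM in KO 3, is counted in the smooth muscle list too. Of the genes of skeletal muscle fibres, Myh1 was at 1.38 and 19.8 CPM against 6.09 and 4.71 CPM. That was below both controls in KO 3 and above both in KO 4, as for Tnnt3, Mylpf and Tnni2. Myh2, at 1.45 and 4.31 CPM against 1.59 and 1.38 CPM, was between the controls in KO 3 and above both in KO 4. Myh4 was below both controls in KO 3 and in KO 4, at 0.759 and 1.53 CPM against 2.08 and 3.19 CPM. The median log2 difference of the list from the control mean was -0.29 in KO 3 and 1.46 in KO 4. The 6 Schwann cell genes summed to 106 and 40.2 CPM against 30.1 and 30.2 CPM, with 1 gene at 0 in KO 4. In KO 4 most of that sum was Mbp, at 37.6 CPM, and the list's median log2 difference was -0.54. The summed levels of these lists were high in KO 3 together with Dcn, Lum, Mfap5, Pdgfra, Loxl1, Zeb1 and Cdh2, and their part in those values was not tested. In KO 4 the summed smooth muscle and endothelial markers lay between the controls and the cardiomyocyte markers below both. The skeletal muscle and salivary sums were above both. Genes of the smooth muscle list differed among themselves. Notch3, the largest part in KO 4, was at 63.4 CPM there, against 143 and 188 CPM in the controls. Acta2, with the list's smallest unadjusted p by edgeR, was at 30.9 CPM in KO 4, against 5.19 and 7.31 CPM. Of the 11 smooth muscle genes tested, 4 lay above both controls in both knockout libraries and 1 below (26.9% and 33.1% of all genes tested). The collagens and matricellular genes were above both controls in KO 4 as well.

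A list of 25 fibroblast genes, which shares Twist1 with the members, summed to 1289 and 1534 CPM in KO 3 and KO 4, against 1285 and 890 CPM in the controls. No gene was at 0. The largest part in KO 4 and both controls was Ly6a, at 208 and 880 CPM in KO 3 and KO 4 against 584 and 378 CPM. In KO 3 the largest was Gsn, at 542 and 191 CPM against 340 and 216 CPM. Of the list's 24 tested genes, KO 3 and KO 4 exceeded both controls in 5 and lay under them in 3, Twist1 among the latter (26.9% and 33.1% of all genes tested). At an unadjusted p under 0.05, 1 of the 24 was higher and 0 lower (9.42% and 15.2% of all genes tested). The 1 was Cxcl12, a chemokine of stromal cells, at 55.2 and 5.45 CPM against 2.91 and 2.17 CPM. The median log2 difference of this list from the control mean was 0.93 in KO 3 and -0.04 in KO 4. The 10 leukocyte genes summed to 207 and 66.8 CPM against 168 and 104 CPM, and 9 cartilage and bone genes to 67.7 and 119 CPM against 108 and 115 CPM. By unadjusted p 3 of the 8 cartilage and bone genes tested were lower (15.2% of all genes), among them Acan, aggrecan, from 4 and 4 counts at 0.276 and 0.191 CPM against 1.45 and 1.38 CPM.

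**Figure D5:**
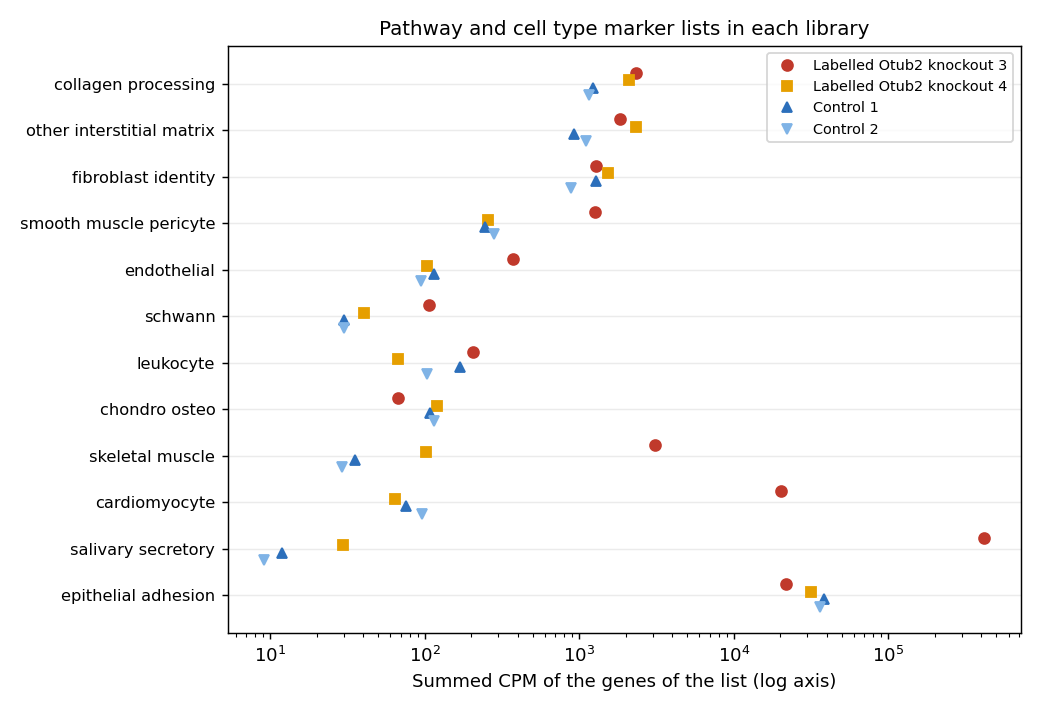
Summed CPM of 12 lists of pathway and cell type marker genes in each library, on a log axis; circles and squares are KO 3 and KO 4, triangles the controls. The salivary, cardiomyocyte and skeletal muscle sums are far higher in KO 3 than in the other libraries, the last through 4 genes shared with heart, and the collagen processing sum is above the controls in both knockout libraries. The epithelial sum is below the controls in both. Krt14 is its largest part, at 10933 and 15791 CPM in KO 3 and KO 4, against 25035 and 21321 CPM in the controls. The list's median log2 difference from the control mean is -0.44 in KO 3 and 0.08 in KO 4. Of its 15 genes 2 lie above and 6 below both controls in both libraries. The shares over all genes tested are 26.9% and 33.1% (42.8% and 11.9% with the minimum of 5 CPM).

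The outcome of the test depended on the tool. DESeq2 called 15 of the 33 members to which it gave an adjusted p higher (8% of all such genes) and 0 lower (0.844%). They were Bgn, Fbln2, Fbn1, Fn1, Loxl2, Lum, Postn, Tnc and 7 collagens, all but Col6a3. Their adjusted p ran between 8.61e-05 for Tnc and 0.046 for Loxl2, where the highest adjusted p over all settings was 0.832 for either gene, without Control 1, and 3 members, Fap, Snai1 and Twist2, had none. Limma voom called 0 members in either direction, with 15 higher and 0 lower by unadjusted p.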

How the data were processed

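RNA was sequenced from 4 libraries, 2 per group. The deposited table gives a read count per gene and library and an FPKM for each count, per the file headers; HISAT2, DESeq and the human build GRCh38 are named in the submitters' processing notes, without versions or roles. Coordinates come from GENCODE mouse release 21 (GRCm38), which held 54409 of the 54446 mouse Ensembl IDs. Features without a gene ID (0.914% to 2.84% of counts) were left out. Columns headed OE-3 and OE-4 were assigned by number to the titles labelled knockout 3 and 4.

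Counts were tested with edgeR 4.0.16 (quasi-likelihood, TMM, filterByExpr, Benjamini-Hochberg over 21916 genes) in R 4.3.3. CPM use TMM-scaled library sizes, and log2 fold changes are knockout over control. SEs come from the F statistic. Alternatives used DESeq2 1.42.0, limma 3.58.1 (voom), other scalings and filters, and each library left out. The fit was tested on simulated data. The FPKM served only for levels between genes. For the counting tool, its strand setting and multi-mapped reads the sources used here give nothing.

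The members and lists were chosen with earlier results of these data known. Values in every library are given for up to 3 members of each role with the smallest p, and up to 3 genes of a context list. Other members, Otub2, Mucl2 and Myh6 are named beside these.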

Additional observations from a re-analysis of the deposited data

How the results depend on the processing

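No paired analysis was possible because the groups share no replicate number. Changing the scaling moved the median log2 fold change of all genes: it was 0.09 with TMM, 0.14 with RLE size factors, -0.38 with upper-quartile factors and -0.36 with library size only. The member median was 1.50, 1.53, 1.03 and 0.92 with these, or 1.41, 1.39, 1.41 and 1.28 above the median of all genes. The members above both controls in both libraries counted 20, 20, 16 and 14. Over all settings that kept the 4 libraries the member median stayed above 0. Genes called numbered 0 higher and 0 lower in the main fit, 51 and 1892 with library size only, 6 and 3 without a filter on low counts, and 1165 and 123 with DESeq2, which called 15 members higher; edgeR called 0 members in each of the first 2. Refitted on genes of at least 5 CPM, KO 3 and KO 4 exceeded both controls for 16 members and lay under them for 1, beside 22.8% and 23.8% of all genes.

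Leaving out each library in turn gave 0 to 5243 genes called higher and 0 to 5096 lower, 0 to 25 members higher and 0 to 3 lower. The member median ran between 0.61, without KO 3, and 1.70, without KO 4. Members with every remaining knockout library above every remaining control numbered 21 to 30 and those below 2 to 9, beside 32.6% to 40.8% and 37.6% to 47.6% of all genes.

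Between the fits without KO 3 and without KO 4, the lowest and highest log2 fold changes were -0.67 and 3.24 for Dcn, -1.27 and 3.32 for Dpt, -0.15 and 2.64 for Mfap4, -0.54 and 3.29 for Mfap5, -0.11 and 2.26 for Loxl1, -0.19 and 1.96 for Pdgfra, -0.93 and 6.09 for Cdh2, -0.024 and 2.29 for Zeb1. Without KO 3, Zeb2 was at -0.65. Fap was at -1.71 without KO 3 and at 0.63 without KO 4. The other direction held for Fbln1 (0.52 without KO 3, -0.29 without KO 4) and Snai2 (0.43 and -0.33). Without Control 1, Snai2 was at -0.02, and without Control 2, Fbln1 was at -0.00158 and Zeb2 at -0.11. With upper-quartile factors Fbln1, Vim, Snai2 and Zeb2 turned, at -0.31, -0.053, -0.38 and -0.36, and with library size only at -0.19, -0.077, -0.28 and -0.50. With the CPM minimum Fbln1, Snai2 and Zeb2 were at -0.17, -0.25 and -0.20. Zeb2 was at -0.056 with voom, and Fap at 0.11 with unnamed features kept. The cause was not tested. Low counts limit Twist2, Snai1, Fap, Dpt and Mfap4, and low counts outside KO 3 also limit Cdh2 and Mfap5.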
